A study of Mus musculus with 2 samples.

Results

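The urea cycle genes were higher in the Kdm3a knockout liver than in the Kdm3a wild-type liver. Among the 5 cycle enzymes, the middle steps Otc, Ass1 and Asl had the largest ratios on these 2 arrays. The set was 10 genes: the cycle enzymes Cps1, Otc, Ass1, Asl and Arg1, the activator-producing enzyme Nags, the mitochondrial carriers Slc25a15 and Slc25a13, the liver glutaminase Gls2 and the arginine transporter Slc7a2. Members were all probe sets (groups of short probes that read 1 transcript) that the platform annotation assigned to 1 of these genes alone. This gave 15 probe sets of 9 genes, out of 34945 probe sets of 18193 genes. No probe set was assigned to Gls2 in the annotation used here, so Gls2 was not analysed.

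Each genotype was read on 1 Affymetrix array of liver RNA from mice with precancerous liver. Both groups carried a Pik3ca transgene, which the labels call specific to hepatocytes (genotypes Pik3caTg;Kdm3aWT and Pik3caTg;Kdm3aKO). Pik3ca encodes a catalytic subunit of PI3-kinase, and no liver without the transgene was among the samples. Kdm3a encodes a demethylase of histone H3 lysine 9, and the comparison asks what its loss goes with before tumours form. The promoter that drives the transgene, the cells in which Kdm3a was deleted, the age, sex and feeding state of the mice, and whether RNA of several animals was pooled were not stated in the labels. With 1 array per group there was no replicate, no test and no error between animals, and each value describes these 2 arrays.

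Hepatocytes use the urea cycle to turn toxic ammonia, released when amino acids are broken down, into urea that the kidney can excrete. Its first steps run in the mitochondrion and the later ones in the cytosol, so carriers must exchange ornithine, citrulline and aspartate across the inner membrane. The enzymes are most abundant in periportal hepatocytes, next to the incoming portal blood, while pericentral hepatocytes remove the remaining ammonia as glutamine. Glucagon, glucocorticoids and a protein-rich diet are known to raise the enzymes, and their loss is a familiar feature of liver tumours.

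As a check of the labels, the Kdm3a signal was 719.9 with the gene intact and 61.6 in its knockout. Below, paired signals are always given with the wild-type array first and the knockout array second, in arbitrary units. Liver identity was clear on both arrays. All 12 measured hepatocyte markers were above the floor of 46.5, the signal below which values were treated as unmeasured. Both arrays had a mean signal of 500.004 after trimming 2% from each end, a scaling made before deposit. Actin probes at the 3' end over those at the 5' end gave a ratio of 1.85 and 1.99, and the Gapdh probes gave 0.701 and 0.654.

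All 9 measured genes had a higher signal in the knockout array, and so did each of their 15 probe sets. Using the brightest probe set of each gene, 4 of 9 genes were at least 2-fold higher (Ass1, Otc, Asl and Slc7a2) and 0 were lower, and the median log2 ratio of knockout over wild type was 0.87. Of all 11693 genes that passed the filter on low signal, 3.83% were at least 2-fold higher, 8.96% were at least 2-fold lower and 47.8% had a ratio above 0, with a median of -0.02. Of all genes past 2-fold 70.1% were thus lower, a share of 53.7% when scaled by the poly-A controls and 80.5% by the hybridisation controls. High-signal genes stood somewhat higher as a whole. In the fifth of genes with the highest mean signal, 4.49% were at least 2-fold higher, 4.4% were at least 2-fold lower, 61.1% had a ratio above 0, and the median was 0.12. All 9 genes passed the filter of 73.7, and each of the 15 probe sets would have passed it on its wild-type signal alone, so none entered only through the array where it was higher. The single yardstick of spread came from the 4958 genes with several probe sets, whose log2 ratios had an SD of 0.446 within a gene. All probe sets of a gene were read on the same 2 arrays. This SD therefore holds no spread between arrays, labelling reactions or mice, and is not the full error of a ratio. As deposited, the log2 ratio of each member by its brightest probe set was larger than this SD. Under some other scalings Arg1 (down to 0.31) and Slc25a15 (down to 0.38) were smaller than it.

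**Figure D1:**
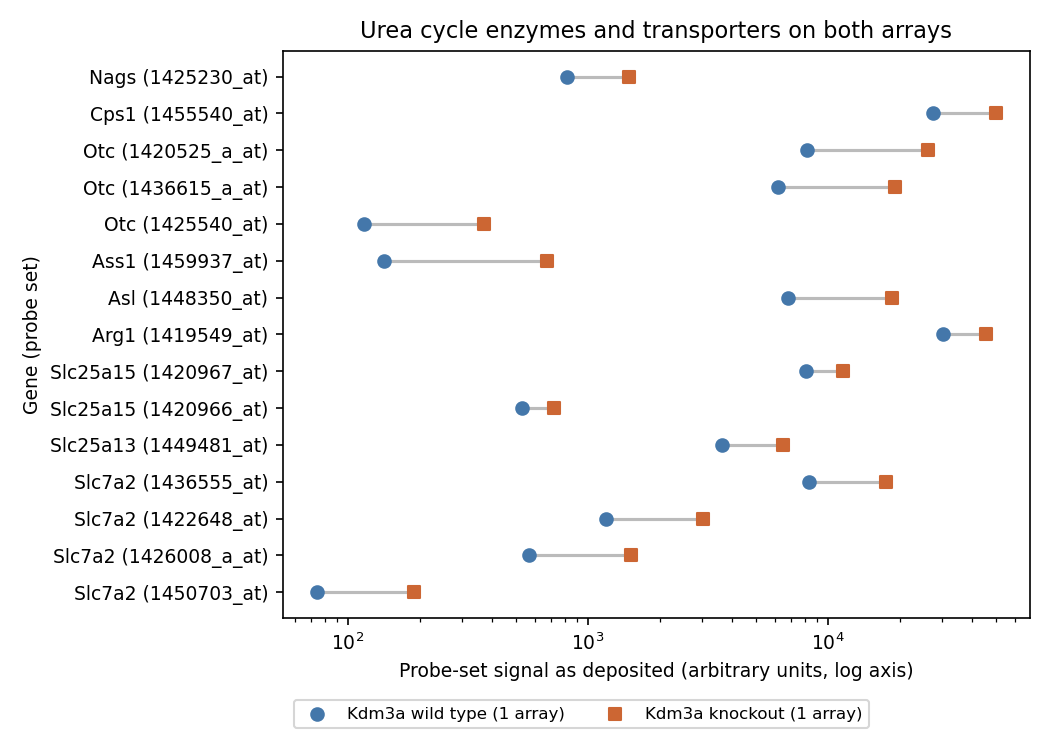
Signal of each of the 15 probe sets (y axis, grouped by gene in the order of the pathway) on the wild-type array (blue circles) and the knockout array (orange squares), as deposited and on a log axis in arbitrary units. Every square lies to the right of its circle, with the longest line for Ass1 (141 to 673) and the shortest for the dimmer Slc25a15 probe set (529 to 722).

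Nags makes N-acetylglutamate, without which the first enzyme of the cycle is inactive. Its probe set read 817 and 1488, a 1.82-fold difference (log2 ratio 0.86). Cps1, the carbamoyl phosphate synthetase that brings ammonia into the cycle, read 27372 and 50052. That is 1.83-fold higher (0.87), so the first enzyme and its activator enzyme had nearly equal ratios, 0.0065 apart on the log2 scale. Each of the pair lay below 2-fold, and 5.17% of all genes kept had a ratio at least as high as that of Cps1.

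Otc, the ornithine transcarbamylase that forms citrulline in the mitochondrion, was read by 3 probe sets that agree closely. The brightest read 8217 and 26127, the second 6193 and 19043, and the dimmest 117 and 368. The knockout signal was 3.18-fold, 3.08-fold and 3.15-fold the wild-type signal, with log2 ratios from 1.62 to 1.67. Probe sets whose signals lay far apart thus gave almost the same ratio. Of all genes kept, 0.624% had a ratio at least as high as Otc.

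Ass1, the argininosuccinate synthetase that joins citrulline to aspartate, had the highest ratio of the set. The probe set assigned to Ass1 alone was dim in both arrays, at 141 and 673, which is 4.77-fold higher (2.25). Of all genes kept, 0.231% were at least as high. A brighter probe set is assigned to Ass1 jointly with a second gene, Gm5424, and so belongs to no single gene here. It read 2690 and 8146, a 3.03-fold difference (1.60). Taking that probe set for Ass1, a choice made after seeing the data, would place the gene just below Otc.

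Asl, the argininosuccinate lyase that releases arginine and fumarate, read 6843 and 18433, 2.69-fold higher (1.43). Arg1, the liver arginase that splits arginine into urea and ornithine, read 30226 and 45679, 1.51-fold higher (0.60). Among the 5 enzymes, the consecutive steps Otc, Ass1 and Asl were thus past 2-fold, and the first and last steps, Cps1 and Arg1, were not. This division held as deposited and under 4 of the 5 other scalings tried. With scaling on the poly-A controls, Cps1 too passed 2-fold, at 1.04. Cps1 and Arg1 were also read at the highest signals of the set, and whether such bright probe sets respond less was not tested.

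Slc25a15, the carrier that exchanges ornithine and citrulline across the inner mitochondrial membrane, had the lowest ratio of the set. Its brighter probe set read 8066 and 11548, and its dimmer one 529 and 722, ratios of 1.43-fold and 1.36-fold (0.52 and 0.45). Slc25a13, also called citrin, exports aspartate from liver mitochondria and so delivers the second nitrogen of urea. It read 3618 and 6477, 1.79-fold higher (0.84). Slc7a2 encodes a cationic amino acid transporter that takes up arginine and ornithine at the cell surface, and liver makes a splice form of low affinity.

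All 4 probe sets of Slc7a2 were more than 2-fold higher. The brightest read 8350 and 17502, the next 1187 and 3006, the third 568 and 1512, and the dimmest 74.2 and 188. The folds were 2.10, 2.53, 2.66 and 2.53, with log2 ratios from 1.07 to 1.41. The brightest probe set, which stands for the gene in the counts, was therefore the lowest of the 4. On that probe set Slc7a2 fell under 2-fold in 4 of the 5 other scalings, the lowest being 0.90 after quantile normalization. Which splice form each probe set reads was not stated.

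**Figure D2:**
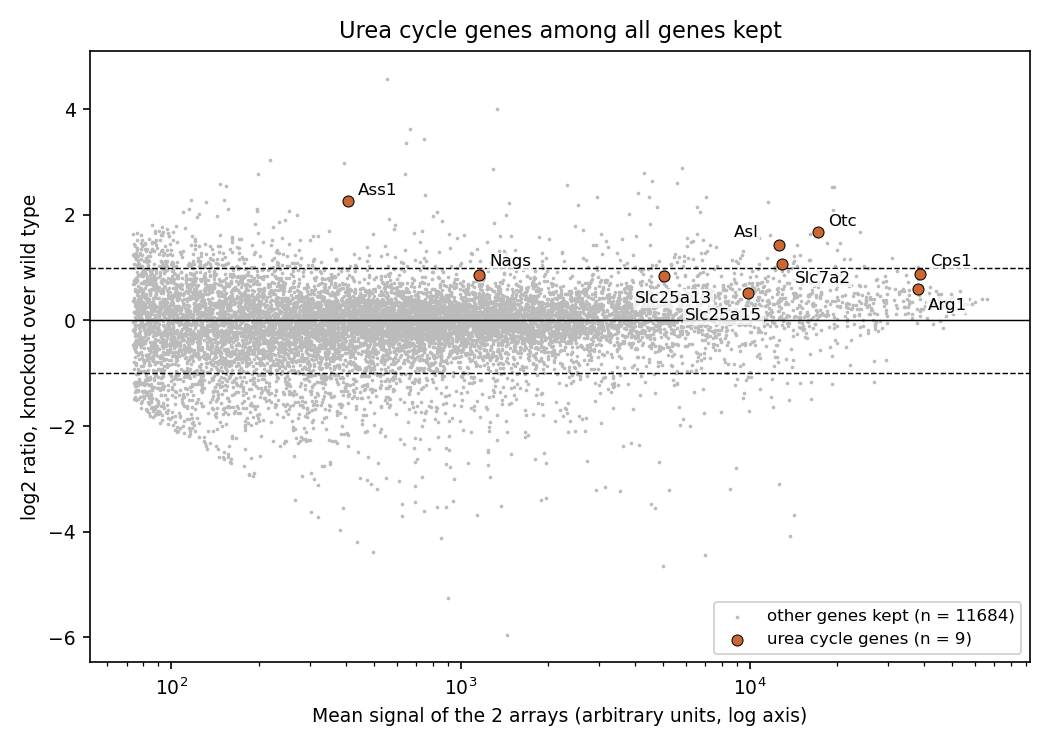
Log2 ratio of knockout over wild type (y axis) against mean signal of the 2 arrays (x axis, log scale, arbitrary units) for all other genes kept (grey) and the 9 urea cycle genes (orange), with dashed lines at 2-fold. All 9 orange points lie above 0, from 0.52 for Slc25a15 to 2.25 for Ass1.

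In order of ratio the genes ran Ass1, Otc, Asl, Slc7a2, Cps1, Nags, Slc25a13, Arg1 and Slc25a15, over a span of 1.74 log2 units. The widest gap between neighbours was that between Ass1 and Otc (0.59). It was the only one above the SD of 0.446, but that SD describes 1 ratio. A difference between 2 ratios has a wider spread, so the SD does not set Ass1 apart from Otc. All other neighbours in that order lay closer, the widest of them being Asl and Slc7a2 at 0.36. As groups by role, the 5 cycle enzymes had a median of 1.43 with 3 past 2-fold, and the 4 measured supply and transport genes had a median of 0.85 with 1 past 2-fold. The groups overlapped, since Cps1 and Arg1 lay within the range of the supply and transport genes.

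**Figure D3:**
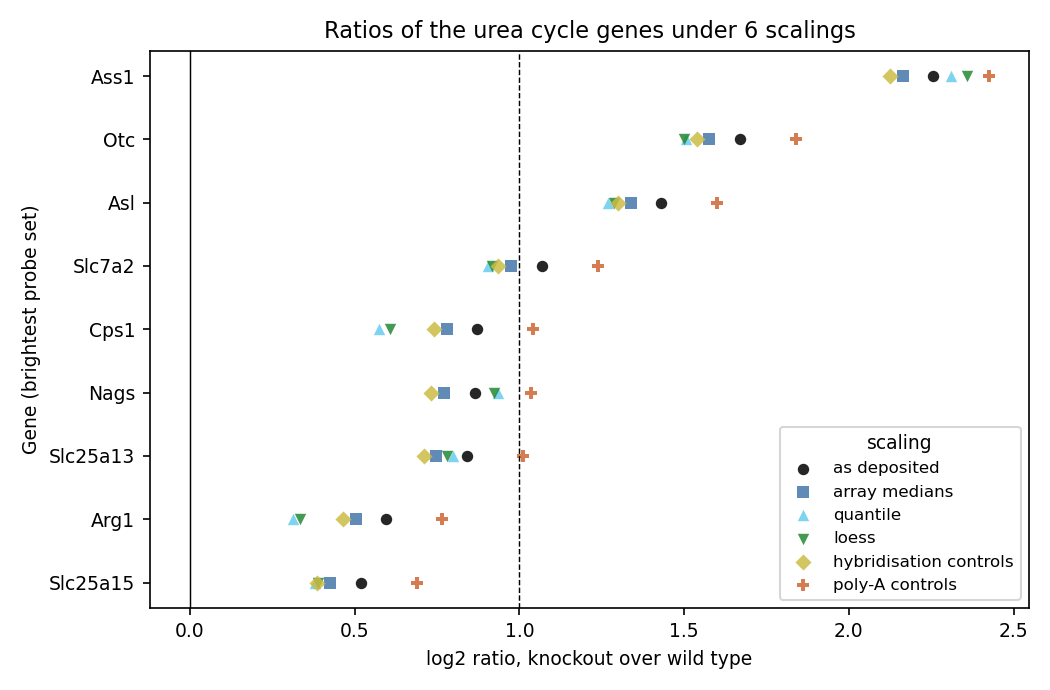
Log2 ratio of knockout over wild type (x axis) for each of the 9 genes (y axis, brightest probe set) as deposited and under 5 other scalings (marker shapes), with a dashed line at 2-fold. Every point is above 0, the lowest being Arg1 after quantile normalization at 0.31, and Otc, Ass1 and Asl stay past 2-fold under all 6.

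These are bulk liver samples, in which fewer cells of a type and less RNA per cell cannot be told apart. The general hepatocyte markers were slightly higher in the knockout array. All 12 had a ratio above 0, their median was 0.37, and 0 reached 2-fold, with a summed signal of 446759 and 569872. After quantile normalization or loess 9 of 12 were above 0, with medians of 0.07 and 0.08. The markers ran from 0.18 for Ahsg, a secreted plasma glycoprotein, to 0.52 for Asgr1, a receptor for glycoproteins on hepatocytes. Of the 9 urea cycle genes, 8 lay above the highest hepatocyte marker, against 13.1% of all genes kept, and Slc25a15 lay just below it. The count was 8 of 9 under each of the 5 other scalings too, but after quantile normalization or loess the gene below the highest marker was Arg1 (0.31 and 0.33), not Slc25a15 (0.38 and 0.39). Most hepatocyte markers were far brighter than most of the members. The dimmest markers, Asgr1 (11551 in the wild type) and Hnf4a (13300, ratio 0.50), were among the highest of the markers. Whether bright probe sets respond less was not tested, so the marker list is not a yardstick at equal signal.

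Markers of other liver cells were mostly lower in the knockout array. At least 2-fold lower were 7 of 10 markers of stellate cells and fibroblasts (summed signal 40218 and 18553), as were 7 of 8 bile duct cell markers (7704 and 2504), or 6 of 8 when scaled by the poly-A controls. Of 8 endothelial markers, 1 was at least 2-fold lower (6353 and 4759), against 8.96% of all genes kept. As deposited, 2 of 5 measured T and NK cell markers, 1 of 4 erythroid markers and 1 of 3 neutrophil markers had a ratio above 0. Of all genes kept, 47.8% did. The erythroid gene Klf1 was at least 2-fold higher (122 and 361), against 3.83% of all genes kept. At least 2-fold lower were 2 T and NK cell and 2 neutrophil markers, against 8.96%. Scaled by the hybridisation controls, 1 T and NK cell marker was above 0 and 3 were at least 2-fold lower. The part of these differences in the urea cycle ratios was not tested.

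Arg1 and Slc7a2 are also made by activated macrophages, so macrophage markers are given beside them. Of 13 measured general macrophage markers, 6 were at least 2-fold lower (4 when scaled by the poly-A controls), against 8.96% of all genes kept. The 3 at least 2-fold higher, against 3.83%, were Cd163, Marco and Timd4, each below the floor in the wild type. They passed the filter only through the knockout array, so their count was partly set by the filter. In all 4 of the 13 had a ratio above 0, the other being Clec4f (1921 and 3181). The summed signal over all 14 was 56005 and 33193. Of 7 markers of alternatively activated macrophages, 4 were too dim to pass the filter. Of the 3 measured, 1 was at least 2-fold lower (Chil3, 615 and 27.5), against 8.96% of all genes kept, and 0 were higher. Chil3 was below the floor in the knockout and passed the filter only through the wild-type array. The summed signal of all 7 markers was 3262 and 2542, most of it from the mannose receptor gene Mrc1 (2342 and 2318). The part of macrophages in the Arg1 and Slc7a2 ratios was not tested. Nos2, the macrophage enzyme that competes with arginase for arginine, was below the floor on both arrays (32.8 and 4.04).

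The genes that feed the cycle with nitrogen and carry off its products were mixed, in contrast to the members. Of 33 listed genes 27 passed the filter, 6 were at least 2-fold higher and 3 at least 2-fold lower. Among all genes kept, 3.83% were that much higher and 8.96% that much lower. The list had a median of 0.27 (0.14 to 0.44 over the other scalings). The cytosolic aspartate aminotransferase Got1 read 3205 and 9949 (1.63), and the ornithine aminotransferase Oat read 5768 and 17643 (1.61). Car5a, the mitochondrial carbonic anhydrase that supplies bicarbonate to Cps1, read 934 and 2795 (1.58). The glutamate transporter Slc1a2 followed at 1.15.

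The 4 lowest genes of the list had various roles. Asns, which makes asparagine, read 576 and 85.1 (-2.76). Aldh18a1, which makes the precursor of proline and ornithine, read 312 and 91.1 (-1.77), and Gatm, which uses arginine to start creatine synthesis, read 819 and 299 (-1.46). The ammonia channel Rhbg read 295 and 168 (-0.81). The directions of these 8 named genes held under all 6 scalings.

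Partner genes and paralogues of the members showed smaller or less certain differences. Glul, the glutamine synthetase of pericentral hepatocytes, had log2 ratios of 0.36 and 0.39 on its 2 probe sets, and Glud1, the mitochondrial glutamate dehydrogenase that releases ammonia, had 0.27 and 0.18. Both lie within 1 SD of probe sets of the same gene. Arg2, the arginase of mitochondria in other tissues, was below the filter in both of its probe sets, at 71.9 and 39.6 on the brighter one. Slc7a1, the arginine transporter of most cells outside liver, was dim, and its 3 probe sets disagreed, from 94.3 and 130.5 on one to 150.1 and 11.4 on another.

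Enzymes that degrade amino acids, whose nitrogen the cycle disposes of, differed much as the urea cycle genes did. All 26 measured had a ratio above 0, under each of the 6 scalings, and 12 were at least 2-fold higher, against 3.83% of all genes kept. The other scalings gave counts from 10 to 15, against 2.64% to 5.86% of all genes kept. As deposited the median of the list was 0.96. After quantile normalization or loess it was 0.77, below the member medians of 0.90 and 0.92. As deposited, 19 of 26 lay above the highest hepatocyte marker. The highest were Hal, the histidine ammonia lyase (2.80), the proline dehydrogenase Prodh (1.60), Aass, which starts lysine breakdown (1.56), and Amdhd1, a later enzyme of histidine breakdown (1.54). The lowest were the glycine cleavage components Gldc (0.17) and Gcsh (0.21), the branched-chain keto acid dehydrogenase subunit Bckdha (0.30) and the homocysteine methyltransferase Bhmt (0.34).

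**Figure D4:**
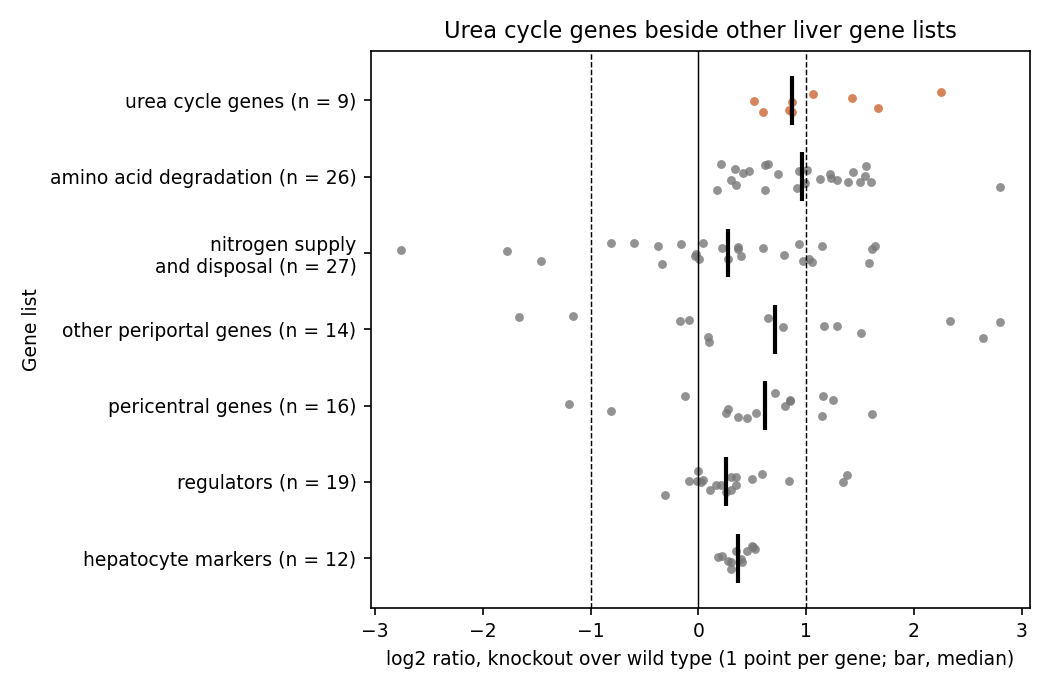
Log2 ratio of knockout over wild type (x axis, 1 point per gene that passed the filter, black bar for the median, vertical jitter only for legibility) for the 9 urea cycle genes (orange) and 6 other lists (grey), with dashed lines at 2-fold. The urea cycle and amino acid degradation points all lie above 0 (medians 0.87 and 0.96 as deposited), while the 12 hepatocyte markers cluster around 0.37.

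Other genes known to be periportal did not move as a block. Of 14 measured, 6 were at least 2-fold higher (against 3.83% of all genes kept) and 2 at least 2-fold lower (against 8.96%). Scaled by the poly-A controls, 1 was that much lower. The median was 0.71 and became 0.47 after quantile normalization. Besides Hal, also counted among the amino acid enzymes, the highest were the phospho-lyase Etnppl (2.64), the steroid dehydrogenase Hsd17b6 (2.33) and the growth factor-binding protein Igfbp2 (1.51). Uroc1 (1.28), past 2-fold as well, is named only because it too stands on both lists. Cdh1, an adhesion cadherin that bile duct cells make too, was lowest (-1.66), followed by the apolipoprotein Apoa4 (-1.17), the protease Ctsc (-0.17) and the aldehyde dehydrogenase Aldh1b1 (-0.08, turning to 0.09 when scaled by the poly-A controls).

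Pericentral genes were mostly higher as well. Of 16 measured, 4 were at least 2-fold higher (against 3.83% of all genes kept) and 1 at least 2-fold lower (against 8.96%). Scaled by the poly-A controls, 6 were that much higher, against 5.86% of all genes kept. The median of the list was 0.62. After quantile normalization it was 0.64, above the periportal median of 0.47, so the order of both lists depended on the scaling. The highest were Oat, the nuclear receptor Nr1i3 (1.25), the cytochrome P450 gene Cyp1a2 (1.15) and Slc1a2, and the lowest were the claudin Cldn2 (-1.20), Rhbg and the Wnt target Axin2 (-0.12, turning to 0.05 when scaled by the poly-A controls). Oat, Slc1a2, Rhbg and Glul stand on the nitrogen list as well. Higher signals were thus found in genes of both zones, and no difference between the zones could be tested.

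Regulators described as acting on urea cycle genes differed less than the genes themselves. Of 19 measured, 2 were at least 2-fold higher and 0 at least 2-fold lower, against 3.83% and 8.96% of all genes kept. Their median was 0.25 (0.12 to 0.42 over the other scalings). The pair past 2-fold were both dim: Crtc2, a glucagon-responsive coactivator, read 94.9 and 247 (1.38), and the factor Onecut1 read 132 and 333 (1.34). Klf15, a factor that induces amino acid-degrading genes in fasting, read 1736 and 3104 (0.84), and the coactivator Ppargc1a 519 and 783 (0.59). The lowest were the protein kinase A subunits Prkaca (-0.31) and Prkar1a (-0.08) and the factors Foxa1 (-0.01) and Sp1 (0.00), of which only Prkaca kept its sign under all 6 scalings. Hnf4a, the nuclear receptor that maintains hepatocyte identity, read 13300 and 18815 (0.50), and Cebpa, a factor needed for urea cycle gene expression, 2293 and 2925 (0.35). These last 2 were chosen after their values were seen.

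Since the members were higher together, the DNA before their start sites was examined for known motifs. RefSeq windows of 300 bases on GRCm38.p6, from 250 before to 50 after an annotated start, were found for 5 of the 10 genes (Otc, Ass1, Nags, Slc25a13 and Slc25a15, the last with 2 windows). The windows of Otc and Ass1 are shown because these genes had the largest ratios, and those of Nags and Slc25a13 because they held matches. Capitals mark a match to a searched motif, and all sequences run 5′ to 3′ on the strand of the gene. The Otc window is chrX:10252055-10252354 on the plus strand, that of Ass1 chr2:31470020-31470319 on the plus strand, that of Nags chr11:102145263-102145562 on the plus strand, and that of Slc25a13 chr6:6217124-6217423 on the minus strand.
Otc: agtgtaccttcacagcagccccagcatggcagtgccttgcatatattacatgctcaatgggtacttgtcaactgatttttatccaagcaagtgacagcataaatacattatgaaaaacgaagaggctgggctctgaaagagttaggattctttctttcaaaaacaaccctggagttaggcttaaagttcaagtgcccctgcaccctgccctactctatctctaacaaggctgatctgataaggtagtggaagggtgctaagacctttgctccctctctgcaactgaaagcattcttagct
Ass1: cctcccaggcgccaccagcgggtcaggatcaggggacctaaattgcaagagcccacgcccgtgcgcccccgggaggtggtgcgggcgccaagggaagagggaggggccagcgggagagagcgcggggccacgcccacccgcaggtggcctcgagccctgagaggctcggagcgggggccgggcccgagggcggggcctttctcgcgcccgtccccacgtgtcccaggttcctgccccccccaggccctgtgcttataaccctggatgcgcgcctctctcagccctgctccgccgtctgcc
Nags: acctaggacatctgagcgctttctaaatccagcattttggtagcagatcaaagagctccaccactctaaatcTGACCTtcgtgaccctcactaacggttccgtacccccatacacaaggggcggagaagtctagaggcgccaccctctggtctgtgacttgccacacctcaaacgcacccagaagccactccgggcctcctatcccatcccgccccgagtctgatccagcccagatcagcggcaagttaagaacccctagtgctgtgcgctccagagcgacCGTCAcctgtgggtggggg
Slc25a13: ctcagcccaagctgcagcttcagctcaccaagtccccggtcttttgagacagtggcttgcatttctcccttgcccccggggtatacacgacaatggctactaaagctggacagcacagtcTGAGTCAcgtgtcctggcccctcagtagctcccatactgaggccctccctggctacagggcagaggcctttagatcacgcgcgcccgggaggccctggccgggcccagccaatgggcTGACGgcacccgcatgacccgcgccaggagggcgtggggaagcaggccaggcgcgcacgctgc

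The windows had little composition in common. Bases G and C made up 44.3% of the Otc window, 74% of that of Ass1, 57.7% of that of Nags, 65% of that of Slc25a13 and 60.7% and 79% of those of Slc25a15, beside a median of 52.7% over all 32851 windows of the table. Both strands were searched for 9 motifs. For AP-1 the letters were TGANTCA, and for the half-site of the cAMP response element TGACG. The C/EBP motif was TTGCNNAA. For HNF4 the half-site was CAAAGTCC, and for nuclear receptors in general it was AGGTCA. The FOXA motif was TGTTTAC, the glucocorticoid receptor half-site AGAACA, the TATA box TATAAA and the HNF1 half-site GTTAAT. No motif is contained whole in another. AP-1, the factor of JUN and FOS proteins, had a match in 1 of the 6 windows, that of Slc25a13, where TGAGTCA begins 130 bases before the start; 7.81% of all windows hold this motif. The cAMP half-site was found in Slc25a13, 13 bases before the start, and in Nags, 31 bases after it, and 20.8% of all windows hold it. The nuclear receptor half-site was found in Nags, 178 bases before the start, and in 16.3% of all windows. The other 6 motifs had 0 matches in the 6 windows, beside 10.8% of all windows for C/EBP, 1.42% for HNF4, 3.65% for FOXA, 19% for the glucocorticoid half-site, 13.6% for the TATA box and 7.1% for HNF1. Otc and Ass1, with the largest ratios, held none of the 9 motifs in these windows, which says only that these letters are not there.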

How the data were processed

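Per the labels' protocols, biotin-labelled cRNA was made from 250 ng of total liver RNA. MAS5 is the tool named in the submitters' processing notes, and it gave each probe set the linear intensity that the authors deposited. Its settings are not stated. Groups came from the genotype labels. Of 45101 probe sets, 64 were controls, 34945 named 1 gene in the platform annotation, 932 several and 9160 none. Current symbols came from RefSeq (GRCm38.p6).

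Signals below the floor (the 40th percentile of both arrays) were raised to it, probe sets with a mean signal under the median of such means were left out, and a gene took its brightest probe set. This left 19800 probe sets and 11693 genes. Knockout over wild type was taken as a log2 ratio and counted at 2-fold, with no test. Computation used Python 3.11.15, numpy and pandas, tested on simulated data. The simulation planted differences larger than most member ratios, in genes well above the filter and with low noise. It therefore checks the code and not the precision of these ratios.

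Members and lists were chosen with earlier results of these data known. Named genes were all members, up to 4 highest and 4 lowest of each list of those above the floor in both genotypes, and Glul, Glud1, Arg2 and Slc7a1. One further gene of that rule is not reported here. Other scalings were array medians, quantile, loess (span 0.3), hybridisation controls and poly-A controls. Filter, floor, probe-set choice and size rule were varied too.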

Additional observations from a re-analysis of the deposited data

How the results depend on the processing

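Over the 15 alternatives, 14 of them planned, all 9 genes kept a ratio above 0. Of the recomputed ratios of single genes, 116 moved by less than the SD between probe sets of a gene or not at all. The 1 that moved more was Ass1 read from the probe set it shares with Gm5424, at 1.60. Most of these ratios had no room to move, so their number is no measure of stability. The filter and floor settings changed no member ratio. Averaging probe sets changed only Otc, Slc25a15 and Slc7a2, and leaving out cross-matching probe sets changed only Otc. Only the 5 other scalings could move every gene. The number of genes past 2-fold moved more. The count was 7 when scaled by the poly-A controls (median 1.04, the cause was not tested), 8 by a 1.5-fold rule and 2 by a 3-fold rule, and 3 after quantile normalization, loess or scaling on array medians or hybridisation controls. Of all genes kept, 5.86% were at least 2-fold higher with poly-A scaling, 11.1% passed the 1.5-fold rule upward and 0.872% the 3-fold rule. The share was 2.64% to 3.97% in the settings that gave 3, against 3.83% as deposited. Scaling shifted the median of all genes by -0.13 (hybridisation controls) and 0.17 (poly-A controls), and of all genes past 2-fold, 80.5% and 53.7% were lower, against 70.1% as deposited. The filter, the floor, averaging probe sets and leaving out probe sets with cross-matching name endings changed neither the count nor the median. No paired analysis was possible because each group has 1 array. The dim Ass1 probe set and 6 of 9 genes having a single probe set limit the precision.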

Other observations

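Urea cycle enzymes also work outside the liver, in the small intestine (Cps1, Otc) and the kidney tubule (Ass1, Asl). Pairs of signals again put the wild type first. Of 6 kidney tubule markers, 1 passed the filter (Kap, 153 and 116), and all 6 together summed to 334 and 310. Of 5 measured small intestine markers, 1 passed, the fatty acid-binding protein gene Fabp2, which was bright on both arrays at 13113 and 10408. The brush-border gene Vil1 (34.0 and 1.83) and the lactase gene Lct (29.5 and 44.0) were below the floor on both, and Muc2 (98.1 and 42.1) and Cdx2 (39.4 and 54.6) on 1 array each.

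Among genes of urea and ornithine transport, the urea transporter Slc14a1 (20.5 and 22.5) and Slc25a2 (35.1 and 42.9), a second mitochondrial ornithine carrier, were also below the floor on both arrays. The ornithine carrier Slc25a15 read 8066 and 11548. The genes in these paragraphs were picked after their values were seen.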
